A study of Mus musculus with 8 samples.

Results

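Extracellular ATP is broken down in steps at the surface of the gut epithelium. Here 6 genes of these steps were followed in crypt RNA of mice given a chemical that induces colitis, with and without cholic acid. The set was chosen by gene name and comprised Nt5e, Enpp3, Entpd8, Ada, Pnp and Slc28a2, which are 6 of the 34745 genes in each count table. All 6 passed the filter on low values, which asked for 4 or more of the 8 libraries with an FPKM (counts per kilobase of gene and per unit of library depth) of at least 1. Nt5e passed it only through the DSS group, where all 4 libraries reached 1, while none of the 4 DSS+CA libraries did. The set was put together with the difference between the groups already known, so its values are given as a description and without a test.

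The 8 RNA sequencing libraries came from crypts, the glands of the intestinal epithelium, of wild-type C57BL/6 mice on day 5. The DSS+CA group (4 libraries) received dextran sulfate sodium together with CA. The title of the series names cholic acid, one of the primary bile acids, which the liver makes from cholesterol. The DSS group (4 libraries) received dextran sulfate sodium alone, a sulfated polysaccharide that damages the intestinal epithelium and serves as a standard colitis model. Both groups therefore received the injuring agent, and no library of mice without it is used here. Whether the sampled crypts were injured was not tested. The labels do not give the gut segment, the route and dose of either compound, sex or age, or whether the replicates were separate animals, so the p-values below reflect the variation among these libraries alone, and that variation may be technical.

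ATP that leaves a cell is a danger signal for its neighbours, and the enzymes of the cell surface that remove it turn it in the end into adenosine, which dampens inflammation through its own receptors. Ectonucleotidases of the ENTPD and ENPP families take phosphates off ATP and ADP, CD73 (the product of Nt5e) turns the remaining AMP into adenosine, adenosine deaminase turns adenosine into inosine, and purine nucleoside phosphorylase splits inosine into hypoxanthine and a sugar phosphate. Concentrative transporters such as the product of Slc28a2 carry purine nucleosides into the cell with sodium. In the mouse small intestine Nt5e and other genes of purine breakdown are known to be high in enterocytes at the villus tip, the last stage before these cells are shed.

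The promoters of Nt5e, Ada and Slc28a2 are shown because these genes had the largest differences of the set between the groups. Each is the RefSeq window of 300 bases on GRCm38.p6, with 250 bases before the start RefSeq gives the gene and 50 after it, written 5′ to 3′ on the strand of the gene: chr9:88327359-88327658 on the plus strand for Nt5e, chr2:163750190-163750489 on the minus strand for Ada and chr2:122426185-122426484 on the plus strand for Slc28a2. The RefSeq start of Nt5e lies inside the span the deposited tables give the gene, downstream of its first base, so its window covers no sequence before that span. Capitals mark matches on either strand to the short motifs named after the sequences.
Nt5e: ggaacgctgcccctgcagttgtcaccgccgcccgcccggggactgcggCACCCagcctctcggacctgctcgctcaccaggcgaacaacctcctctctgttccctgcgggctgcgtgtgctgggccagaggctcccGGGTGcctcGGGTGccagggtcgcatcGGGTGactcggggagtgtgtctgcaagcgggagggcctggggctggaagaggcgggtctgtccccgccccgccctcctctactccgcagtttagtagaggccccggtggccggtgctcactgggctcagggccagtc
Ada: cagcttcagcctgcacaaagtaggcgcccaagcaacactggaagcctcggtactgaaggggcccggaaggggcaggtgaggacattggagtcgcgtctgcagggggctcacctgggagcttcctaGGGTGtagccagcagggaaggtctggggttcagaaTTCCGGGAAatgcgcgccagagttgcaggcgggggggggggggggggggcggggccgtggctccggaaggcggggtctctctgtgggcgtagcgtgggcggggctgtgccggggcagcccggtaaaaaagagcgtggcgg
Slc28a2: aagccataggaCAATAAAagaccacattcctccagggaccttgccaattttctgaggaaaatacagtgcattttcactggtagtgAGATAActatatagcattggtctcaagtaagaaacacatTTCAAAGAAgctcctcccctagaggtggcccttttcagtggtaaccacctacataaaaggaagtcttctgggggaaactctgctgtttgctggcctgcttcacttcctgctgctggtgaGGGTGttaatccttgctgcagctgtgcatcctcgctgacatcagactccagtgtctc
In the Nt5e window the capitals are 4 matches to CACCC, the core bound by KLF factors, at -202, -114, -105 and -87 bases from the start. CACCC occurs in 57.5% of the 32851 promoters of the same length, and also in the windows of Ada, Slc28a2 and Entpd8. The GAS element TTCNNNGAA, bound by STAT factors, has 1 match in the Ada window and 1 in the Slc28a2 window, and is found in 8.3% of all promoters. The other capitals in the Slc28a2 window are the GATA motif AGATAA, present in 11.2% of all promoters, and the CDX motif TTTATNG, present in 10.9%. Of the windows not shown, that of Entpd8 holds the AP-1 motif TGANTCA (7.81% of promoters) and the nuclear receptor motif AGGTCA (16.3%), that of Enpp3 holds a TATA box TATAAA on the reverse strand (13.6%), and that of Pnp holds no match. Also searched on both strands, and without a match in the 6 windows, were the HNF4 motif CAAAGTCCA (0.475% of promoters), the cyclic AMP element TGACGTCA (1.79%) and the SMAD motif GTCTAGAC (0.213%). The Nt5e and Ada windows are rich in G and C, at 71.0% with 23 CpG and 68.0% with 20 CpG, against 46.7% with 1 CpG in the Slc28a2 window and a median of 52.7% with 7 CpG over all promoters. No motif in capitals was shared by all 6 windows, and a match describes letters in these windows, not a bound site.

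Before the results, 3 libraries have to be named that stood apart in both groups. The mean length of a counted gene, taken as the harmonic mean over counts, was 1445 bases in DSS+CA 3, 1423 in DSS 2 and 1448 in DSS 3, against 2007 to 2412 in the other DSS+CA libraries and 1719 and 2234 in the other DSS libraries. Total counts lay between 13334012 and 17973196 per library, and mitochondrially encoded genes took 9.72% to 20.5% of the counts in DSS+CA and 16.2% to 27.7% in DSS. The differences of the members and the counts over the lists, by list or in total, are therefore also given without these 3 libraries. That leaves 3 DSS+CA and 2 DSS libraries in the reduced comparison.

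Nt5e encodes CD73, the glycosylphosphatidylinositol-anchored enzyme that makes adenosine from AMP outside the cell. Its level was 7.13, 7.15, 8.08 and 6.38 CPM (counts relative to library size, scaled by the TMM method) in DSS+CA 1 to 4, against 42.0, 105, 34.2 and 52.4 CPM in DSS 1 to 4. The 4 DSS+CA libraries lay close together, the highest 1.27 times the lowest, whereas the DSS libraries spread over a ratio of 3.08, and the lowest DSS library was still well above the highest DSS+CA library. The means were 7.18 ± 0.696 CPM in DSS+CA and 58.5 ± 32.1 CPM in DSS (SD, n = 4 each). On the log2 scale the difference fitted by edgeR was -3.02 with a standard error (SE) of 0.39, an 8.14-fold lower level in DSS+CA. The counts behind these levels were 135, 113, 79 and 117 in DSS+CA 1 to 4 and 689, 1380, 450 and 929 in DSS 1 to 4, so every library held at least 79 counts of it. In a bulk sample, fewer cells that express a gene and less RNA of it per cell cannot be told apart, which holds for every result here.

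Of the 6 members 1, Nt5e, was among the genes past an edgeR adjusted p of 0.05 over all 9913 tested genes, a threshold at which 0.131% of the tested genes were called (0.0908% lower and 0.0404% higher in DSS+CA). It was also the only member whose groups did not overlap in CPM, which 2.81% of the tested genes shared in the lower and 3.24% in the higher direction. Because the set was chosen on this contrast, both counts are descriptions and nothing is read from them. Divided by the library total alone, as in the deposited FPKM, Nt5e stood at 0.968, 0.868, 0.625 and 0.774 in DSS+CA 1 to 4 and at 5.39, 8.10, 2.98 and 5.53 in DSS 1 to 4. The groups were thus apart on this scale too, and the order within DSS was kept at its ends, with DSS 2 highest and DSS 3 lowest. Without DSS 2, DSS 3 and DSS+CA 3 the log2 difference was -2.80 (SE 0.19), and over all alternatives it lay between -3.21 and -2.58, the smallest in size without DSS 2.

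**Figure D1:**
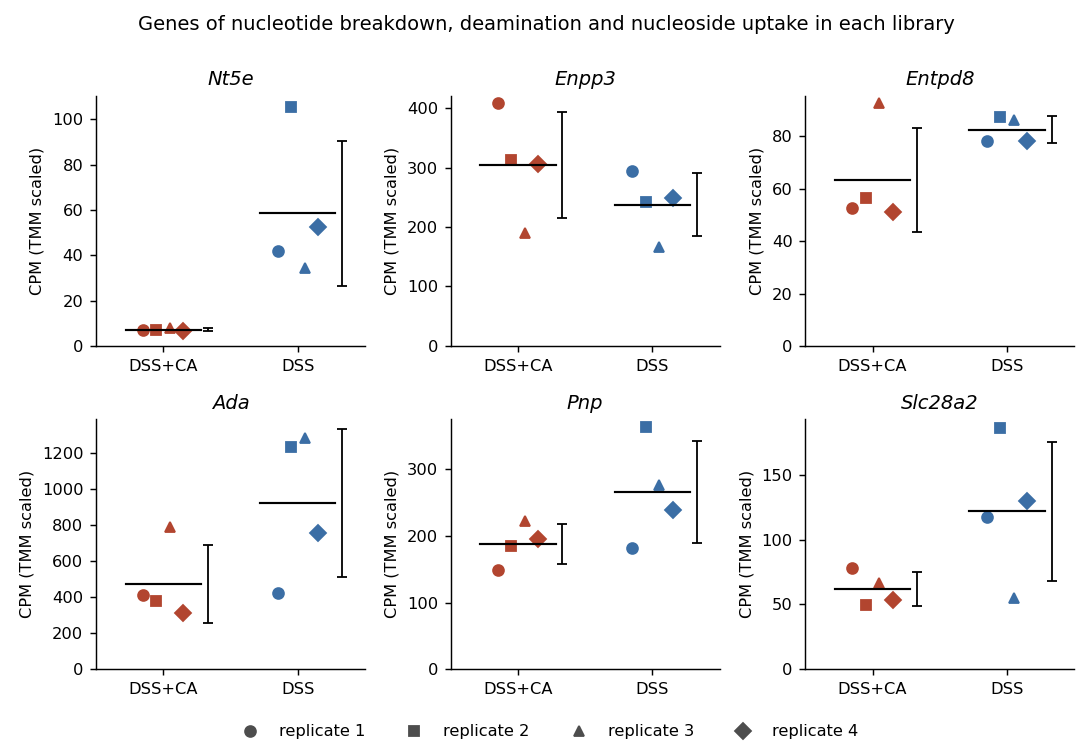
Level of each gene of the set in CPM (TMM scaled, axis from 0) in the 4 DSS+CA libraries (left, red) and the 4 DSS libraries (right, blue); marker shapes give the replicate number, horizontal lines the mean and error bars the SD. Nt5e lies between 6.38 and 8.08 CPM in DSS+CA and between 34.2 and 105 CPM in DSS, while the groups of the other 5 genes overlap.

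Upstream of CD73, the enzymes that take phosphates off ATP and ADP showed smaller differences in unlike directions. Entpd8, an ectonucleotidase of the ENTPD family (chr2:25080304-25085716, plus strand, 10 exons), had 52.7, 56.5, 92.9 and 51.3 CPM in DSS+CA 1 to 4, against 78.2, 87.6, 86.3 and 78.1 CPM in DSS 1 to 4. DSS+CA 3 was above every DSS library and the other DSS+CA libraries were below all of them, and the DSS libraries were within a ratio of 1.12 of each other. On the log2 scale Entpd8 differed by -0.38 (SE 0.28), and by -0.58 (SE 0.16) without the 3 libraries named above. On the FPKM scale DSS+CA 3 did not stand apart, with 9.49, 9.12, 9.56 and 8.27 in DSS+CA 1 to 4 and 13.3, 8.95, 9.98 and 11.0 in DSS 1 to 4. The last 50 bases of Entpd8 overlap Noxa1, a gene on the other strand with 12.1 to 36.7 CPM, and the strand setting of the counting is not given in the sources used here.

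Enpp3, a membrane pyrophosphatase that cleaves ATP to AMP and that in mice limits the ATP-driven activity of mast cells and basophils (chr10:24773814-24836195, minus strand), was the only member with a positive difference. It had 408, 314, 190 and 306 CPM in DSS+CA 1 to 4, against 295, 241, 166 and 249 CPM in DSS 1 to 4. In both groups replicate 1 was highest and replicate 3 lowest, and the groups overlapped. The log2 difference was 0.36 (SE 0.32), and 0.30 (SE 0.22) without the 3 libraries, and ranged from 0.18 to 0.53 over the alternatives, so it did not change sign in any of them. The difference of Enpp3, which supplies AMP, was thus above 0 with overlapping groups, and that of Nt5e, which removes AMP, below 0 without overlap. Both are descriptions only, since the set was chosen on this contrast.

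Downstream of CD73, Ada (chr2:163726584-163750239, minus strand, 12 exons) encodes adenosine deaminase, which removes adenosine by turning it into inosine. Its level was 410, 380, 792 and 311 CPM in DSS+CA 1 to 4, against 423, 1231, 1284 and 755 CPM in DSS 1 to 4. DSS 1 lay within the DSS+CA range, and DSS+CA 3 was above DSS 4, so the groups overlapped. The highest Ada levels of each group were in the 3 libraries of shortest counted genes. The log2 difference was -0.96 (SE 0.44) with all libraries and -0.70 (SE 0.27) without those 3, a range reaching -1.33 when DSS+CA 3 alone was left out.

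Pnp (chr14:50944302-50965237, plus strand) encodes purine nucleoside phosphorylase, the step after deamination. It had 149, 185, 222 and 195 CPM in DSS+CA 1 to 4, against 182, 364, 277 and 239 CPM in DSS 1 to 4. DSS 1 fell within the DSS+CA range and the other DSS libraries lay above it. For Pnp the log2 difference was -0.50 (SE 0.30), and -0.28 (SE 0.20) without the 3 libraries. The adjacent copy Pnp2 had 76.1, 98.1, 147 and 84.9 CPM in DSS+CA 1 to 4 and 103, 282, 169 and 151 CPM in DSS 1 to 4, with a log2 difference of -0.80 (SE 0.36; edgeR adjusted p = 0.636). Of the 50-base words of Pnp transcripts in GENCODE M21, 13.6% also occur in Pnp2, and the deposited span of Pnp contains that of Pnp2, so how reads were divided between them is uncertain. The deposited identifier of Pnp carries the name Gm49342 in GENCODE M21, which gives Pnp an identifier of its own. Pnp took 1.51 to 2.30 counts for each Pnp2 count in DSS+CA and 1.29 to 1.77 in DSS.

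Slc28a2 (chr2:122426477-122461137, plus strand, 18 exons) encodes CNT2, the sodium-coupled transporter that takes up adenosine, inosine and guanosine. Its level was 77.9, 49.2, 66.4 and 53.4 CPM in DSS+CA 1 to 4, against 117, 186, 54.7 and 130 CPM in DSS 1 to 4. DSS 3 alone fell within the DSS+CA range, and the other DSS libraries were above every DSS+CA library. The log2 difference was -0.98 (SE 0.37), -1.06 (SE 0.23) without the 3 libraries, and between -1.22 and -0.70 over the alternatives. The neighbouring copy Gm14085, which RefSeq calls Slc28a2b, shares 40.6% of its 50-base words with Slc28a2 and had 0 counts in DSS+CA and 8 in DSS, so few reads were assigned to it.

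By mean FPKM, which divides counts by a fixed length per gene, the order in DSS+CA was Ada (223 ± 46.1), Enpp3 (122 ± 56.2), Pnp (54.9 ± 7.55), Entpd8 (9.11 ± 0.593), Slc28a2 (8.77 ± 3.01) and Nt5e (0.809 ± 0.146; SD, n = 4). In DSS it was Ada (378 ± 108), Enpp3 (81.8 ± 34.6), Pnp (66.2 ± 5.38), Slc28a2 (14.9 ± 6.00), Entpd8 (10.8 ± 1.86) and Nt5e (5.50 ± 2.09; SD, n = 4). Entpd8 and Slc28a2 changed places between the groups and did not differ beyond their spread in either, and the libraries of Enpp3 and Pnp overlapped in both groups. Ada and Enpp3 overlapped in DSS+CA and were apart in DSS, and Nt5e lay below every other member in each of the 8 libraries. The length behind the FPKM of Entpd8, 7134 bases, exceeded the 5413 bases that the gene spans. These lengths are thus not plain transcript lengths, and the order between genes depends on them. Together the 6 genes took 0.101% to 0.142% of all counts in DSS+CA and 0.138% to 0.162% in DSS.

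Within the set, the counts of Nt5e were also set against those of Ada and Slc28a2. Nt5e was chosen on this contrast and differed more than either. Lower ratios in DSS+CA therefore follow from the values above and are descriptions only. For every 1000 counts of Ada there were 17.4, 18.8, 10.2 and 20.5 counts of Nt5e in DSS+CA 1 to 4, against 99.2, 85.5, 26.7 and 69.4 in DSS 1 to 4. For every 1000 counts of Slc28a2 there were 91.6 to 145 counts of Nt5e in DSS+CA and 359 to 626 in DSS. Both ratios are free of library scaling, and in neither did the groups overlap. The ratio to Ada was lowest in DSS+CA 3 and DSS 3 within their groups, which are the library of highest Ada in each.

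**Figure D2:**
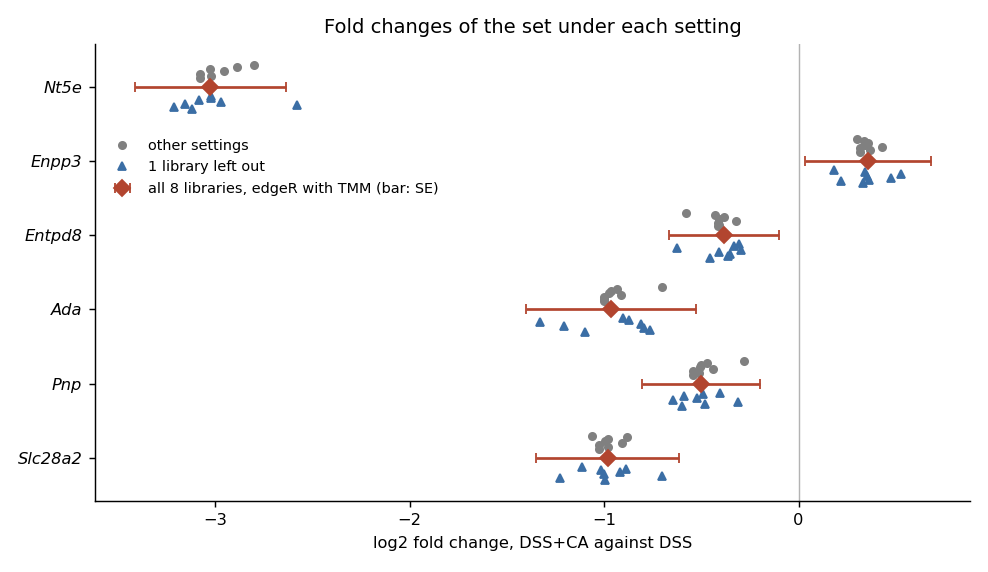
Log2 fold change (DSS+CA against DSS) of each gene of the set with all 8 libraries (red diamonds, bars the SE), with 1 library left out (blue triangles) and under the other settings (grey dots: other scaling, tool, filters, the replicate block and the reduced comparison). Nt5e stays between -3.21 and -2.58, Enpp3 between 0.18 and 0.53, and no gene crosses 0.

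Genes of the same pathways outside the set were taken from 9 lists of 109 genes in all, the members included, and 67 of those outside the set were tested. None passed an edgeR adjusted p of 0.05 in either direction, while 7 were higher and 4 lower at an unadjusted p under 0.05, and DESeq2 called 1 higher and 2 lower. Over all tested genes 775, or 7.82%, had an unadjusted p under 0.05, and DESeq2 called 2.22%. In simulated counts the edgeR procedure called only 8.96% of 2-fold changes, so a gene not called is not shown to be unchanged. Without the 3 libraries, 2 of the 67 passed in the higher direction (Ahcy, Adsl) and 4 in the lower (Samhd1, Xdh, Adora2b, Upp1). In that reduced comparison 2.36% of all tested genes passed in the higher and 4.25% in the lower direction, so calls were far more frequent throughout, and the reduced values of single genes below are to be read against these shares. In the annotation deposited with the counts, 131 further genes carry the KEGG term for purine metabolism, a list added after the data were seen, and 72 were tested, with none called by edgeR or DESeq2, 6 higher and 1 lower at an unadjusted p under 0.05 and a median log2 difference of 0.07, against 0.02 over all tested genes.

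Of the other genes that break nucleotides down outside the cell, 6 of 12 were tested, and none was called by edgeR or DESeq2 (1 higher and 0 lower at an unadjusted p under 0.05). Their median log2 difference was 0.36, with 4 above 0 and 2 below. Enpp1, a pyrophosphatase that also cleaves ATP to AMP, had 15.7, 16.1, 13.1 and 15.8 CPM in DSS+CA 1 to 4 and 13.6, 5.57, 5.40 and 9.36 CPM in DSS 1 to 4 (log2 difference 0.84, SE 0.35; edgeR adjusted p = 0.555), and a difference of 0.43 (SE 0.23) without the 3 libraries. Alpi, intestinal alkaline phosphatase of the brush border, which can also dephosphorylate AMP, had a mean of 1155 ± 485 CPM in DSS+CA and 726 ± 216 CPM in DSS (SD, n = 4 each; log2 difference 0.67, SE 0.41; edgeR adjusted p = 0.83). Acpp, an acid phosphatase that can also dephosphorylate AMP outside the cell, differed the other way, by -0.62 (SE 0.40; edgeR adjusted p = 0.861), and by -0.94 (SE 0.32; edgeR adjusted p = 0.110) without the 3 libraries.

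Inside the cell, 10 of 13 genes of nucleotide breakdown were tested and none was called by edgeR or DESeq2 (2 higher and 1 lower at an unadjusted p under 0.05; median 0.22). Samhd1, which hydrolyses deoxynucleotides, had 54.9, 60.4, 59.0 and 57.6 CPM in DSS+CA 1 to 4 and 109, 120, 66.1 and 92.2 CPM in DSS 1 to 4, with a log2 difference of -0.74 (SE 0.27; edgeR adjusted p = 0.440). Its groups did not overlap, and without the 3 libraries its difference was -0.84 (SE 0.17; edgeR adjusted p = 0.0359). Entpd7, an ENTPD enzyme of intracellular membranes, had a difference of 0.87 (SE 0.33; edgeR adjusted p = 0.461), also with groups that did not overlap.

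Among genes that convert adenosine or hold its deaminase, 6 of 7 were tested, and none was called by edgeR (1 higher and 0 lower at an unadjusted p under 0.05; 1 higher by DESeq2; median 0.39). The gene DESeq2 called was Mtap, which recycles methylthioadenosine to adenine, with 19.97, 12.9, 15.9 and 14.2 CPM in DSS+CA 1 to 4 and 5.98, 6.79, 8.06 and 9.08 CPM in DSS 1 to 4. Its log2 difference was 1.07 (SE 0.29), with an adjusted p of 0.188 by edgeR and 0.0470 by DESeq2. Ahcy, which splits S-adenosylhomocysteine into adenosine and homocysteine, had a difference of 0.60 (SE 0.35; edgeR adjusted p = 0.788) with all libraries and 0.99 (SE 0.17; edgeR adjusted p = 0.0232) without the 3 libraries. Dpp4, known as CD26 and, in humans, the surface anchor of adenosine deaminase, had 598, 856, 2570.4 and 821 CPM in DSS+CA 1 to 4 and 896, 3055, 1196 and 1442 CPM in DSS 1 to 4 (difference -0.44, SE 0.54; edgeR adjusted p = 0.968). Adk, the kinase that returns adenosine to AMP, had a difference of -0.28 (SE 0.38; edgeR adjusted p = 0.979).

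Of the other nucleoside transporters, 3 of 7 were tested, with none called by edgeR or DESeq2 and 0 at an unadjusted p under 0.05. The equilibrative transporter Slc29a1 had 20.4, 14.5, 5.21 and 18.4 CPM in DSS+CA 1 to 4 and 11.3, 5.87, 12.3 and 11.9 CPM in DSS 1 to 4 (difference 0.50, SE 0.42; edgeR adjusted p = 0.920). The concentrative transporter Slc28a3 had a difference of 0.48 (SE 0.33; edgeR adjusted p = 0.874), and of 0.11 (SE 0.26) without the 3 libraries. Their groups overlapped, as did those of Slc28a2.

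In purine salvage and breakdown, 11 of 14 genes outside the set were tested, with none called by edgeR or DESeq2 (0 higher and 1 lower at an unadjusted p under 0.05; median -0.09). Xdh, which turns hypoxanthine into xanthine and urate, had 429, 375, 207 and 353 CPM in DSS+CA 1 to 4 and 860, 380, 391 and 649 CPM in DSS 1 to 4, so that DSS+CA 1 lay above DSS 2 and DSS 3. Its log2 difference was -0.74 (SE 0.37; edgeR adjusted p = 0.702), and -1.001 (SE 0.22; edgeR adjusted p = 0.0421) without the 3 libraries.

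For purine synthesis, 12 of 13 genes were tested, and none was called by edgeR or DESeq2 (2 higher and 0 lower at an unadjusted p under 0.05). Of these, 9 were above 0 and 3 below, with a median log2 difference of 0.47. Their summed level was 480, 473, 441 and 489 CPM in DSS+CA 1 to 4 and 336, 414, 339 and 359 CPM in DSS 1 to 4, without overlap. Without Adss the sums overlapped, at 275 to 349 CPM in DSS+CA and 239 to 310.4 CPM in DSS. Adss, which starts the branch to AMP, had a difference of 0.71 (SE 0.26; edgeR adjusted p = 0.432) with groups that did not overlap. Adsl, the lyase that acts in both the common path and the AMP branch, had 0.90 (SE 0.32; edgeR adjusted p = 0.409), and 1.17 (SE 0.19; edgeR adjusted p = 0.0215) without the 3 libraries.

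Receptors were mostly too low to test, and 6 of 19 were tested, with none called by edgeR (0 higher and 1 lower at an unadjusted p under 0.05; 0 higher and 1 lower by DESeq2; median -0.21). The gene DESeq2 called was Adora2b, the low-affinity adenosine receptor of gut epithelium, with 2.48, 2.91, 1.94 and 3.98 CPM in DSS+CA 1 to 4 and 10.4, 7.70, 8.60 and 8.85 CPM in DSS 1 to 4. Every DSS+CA library was below every DSS library. The log2 difference was -1.64 (SE 0.33), with an adjusted p of 0.0796 by edgeR and 0.000355 by DESeq2, and an edgeR adjusted p of 0.0238 at a difference of -1.66 (SE 0.28) without the 3 libraries. Adora2b, which senses adenosine, was thus lower in DSS+CA without overlap of the groups but short of the edgeR threshold. Nt5e, which makes adenosine outside the cell, was chosen on this contrast, so its lower level adds nothing to this. Of nucleotide release, Panx1, a channel for ATP, had a difference of -0.37 (SE 0.27; edgeR adjusted p = 0.899), and Vdac1 one of 0.59 (SE 0.30; edgeR adjusted p = 0.702).

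Pyrimidine nucleosides share transporters and enzymes with purines, and 11 of 13 genes of their handling were tested, with none called by edgeR (1 higher and 1 lower at an unadjusted p under 0.05; 0 higher and 1 lower by DESeq2; median -0.07). The gene DESeq2 called was Upp1, uridine phosphorylase, which splits uridine as purine nucleoside phosphorylase splits inosine. It had 61.2, 86.4, 84.6 and 72.0 CPM in DSS+CA 1 to 4 and 162, 232, 176 and 185 CPM in DSS 1 to 4, with every DSS library above every DSS+CA library. Upp1 differed by -1.31 on the log2 scale (SE 0.27), with an adjusted p of 0.0820 by edgeR and 0.000551 by DESeq2. Without the 3 libraries its difference was -1.28 (SE 0.19; edgeR adjusted p = 0.0183). Dctd, deoxycytidylate deaminase, had a difference of 0.93 (SE 0.35; edgeR adjusted p = 0.452).

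**Figure D3:**
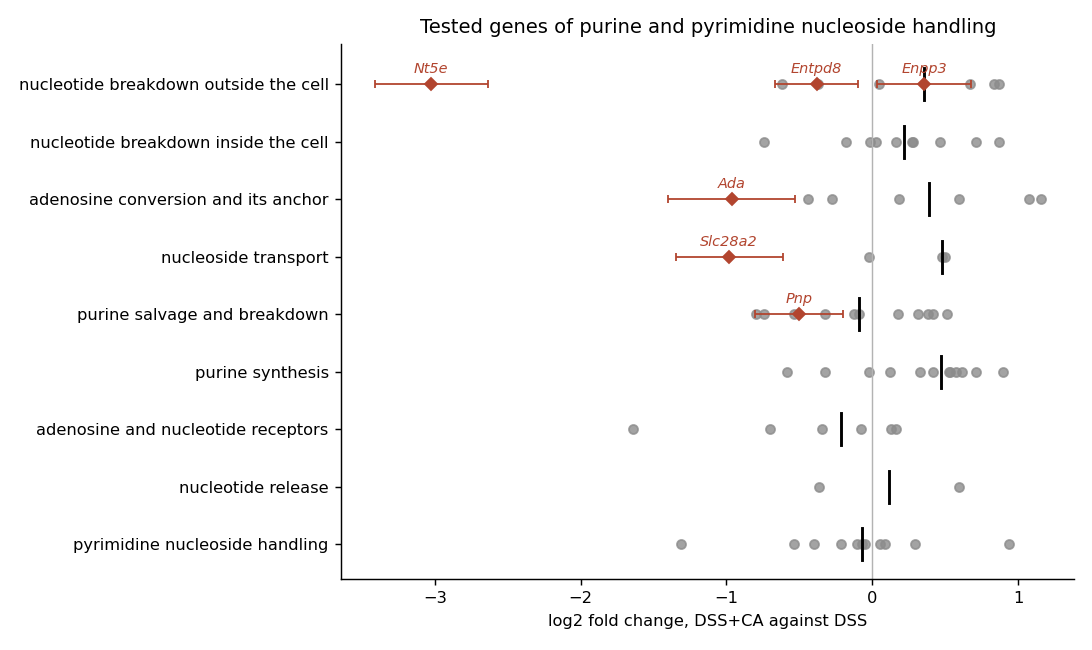
Log2 fold change (DSS+CA against DSS) of every tested gene of the 9 pathway lists. Red diamonds with SE bars are the 6 genes of the set, grey dots the genes outside it and black bars the median of the grey dots; Nt5e at -3.02 lies farthest from 0, and Adora2b at -1.64 and Upp1 at -1.31 are the lowest grey dots.

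Genes whose pattern was most like that of Nt5e were ranked by Pearson's r of log2(CPM + 1) over the 8 libraries, among 9912 genes. Highest were Dio1, a thyroid hormone deiodinase, at 0.987, Sectm1a at 0.986, Mbl2, a mannose-binding lectin, at 0.976, Apol7a at 0.975, Apol9b at 0.973 and Upp1 at 0.973. In CPM all 6 shared low levels in the 4 DSS+CA libraries and a maximum in DSS 2. On the FPKM scale Dio1, Mbl2 and Apol7a kept that maximum. Apol9b was then highest in DSS 1 (50.9, against 34.0 in DSS 2), as was Upp1 (60.1, against 51.7). Sectm1a was highest in DSS 4 (2.44, against 2.41 in DSS 2). All 6 share libraries and depth with Nt5e, so the values of r describe likeness only. Dio1, for example, had 4.75, 5.50, 3.89 and 3.38 CPM in DSS+CA 1 to 4 and 37.1, 74.1, 36.1 and 38.4 CPM in DSS 1 to 4. Within the set, r with Nt5e was 0.82 for Slc28a2, 0.74 for Pnp, 0.68 for Ada, 0.67 for Entpd8 and -0.38 for Enpp3.

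With the mean of each group subtracted, which leaves the spread within groups, the order was another. Npm1, a nucleolar protein gene, was then first with r = 0.996 over the 8 libraries, followed by Acsm3 at 0.985, 4931406C07Rik at 0.983, Chordc1 at 0.982, Akap7 at 0.981 and Wdr12, a ribosome assembly factor, at 0.981. Npm1 had 196, 190, 216 and 177 CPM in DSS+CA 1 to 4 and 153, 451, 112 and 210 CPM in DSS 1 to 4, and its DSS libraries stood in the same order as those of Nt5e. Slc28a2 kept r = 0.81 and Pnp 0.61, against 0.35 for Ada, 0.23 for Entpd8 and 0.11 for Enpp3. Of the set, Slc28a2 therefore had the highest r with Nt5e from library to library within the groups, and Enpp3 the lowest. Among all 9912 genes, however, Slc28a2 ranked 693 and Pnp 1924 by this measure. Nt5e varied little within DSS+CA (6.38 to 8.08 CPM), so these values of r rest mostly on the 4 DSS libraries.

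**Figure D4:**
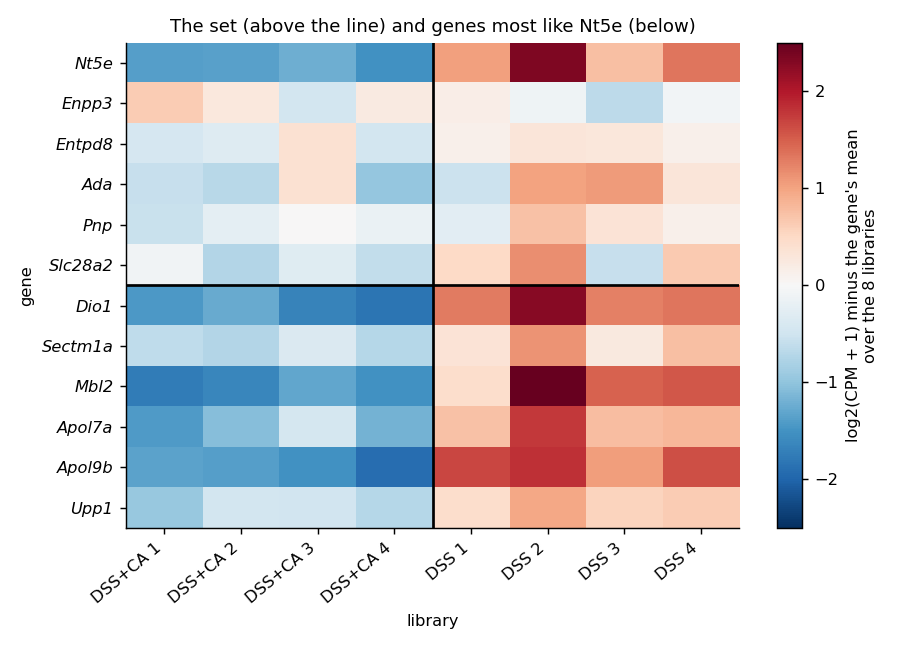
Log2(CPM + 1) of each gene minus its mean over the 8 libraries (colour, red above the mean and blue below), with the 4 DSS+CA libraries left of the vertical line and the 4 DSS libraries right of it. Above the horizontal line are the 6 genes of the set, and below it the 6 genes most like Nt5e over the 8 libraries. On this CPM scale DSS 2 is the highest library of Nt5e and of the genes below the line.

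No gene near a member was called. Nt5e lies at chr9:88327197-88372092 on the plus strand (GRCm38), with 4 annotated transcripts, 1 of them coding, and 9 exons in GENCODE M21. Within 500 kb, 5 genes were tested, and their log2 differences ran from -1.77 (Bcl2a1d) to 0.39 (Syncrip), with -0.02 (SE 0.31) for Snx14, which lies 4658 bases away. Around the other members 3 to 26 genes were tested within 500 kb, with 0 called at each. The smallest adjusted p among all these neighbours belonged to Bambi-ps1, 5798 bases from Slc28a2, with a log2 difference of -1.69 (SE 0.41; edgeR adjusted p = 0.142). With 0.131% of all tested genes called, counts of 0 near single genes say little.

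The label of the samples was set against marker genes. Although the samples are named crypts, genes of mature villus enterocytes were abundant: 10 villus tip genes, led by the apolipoproteins Apoa1 and Apoa4, summed to 16005 to 62809 CPM in DSS+CA and 13805 to 71792 CPM in DSS. The crypt stem cell gene Lgr5 was at 1.23 to 3.91 CPM in DSS+CA and 3.58 to 11.5 CPM in DSS, below the filter. The 10 genes of crypt base and dividing cells summed to 728 to 1082 CPM in DSS+CA and 720 to 2099 CPM in DSS. The colon list summed to 221 to 311 CPM in DSS+CA and 101 to 215 CPM in DSS, most of it Car4, with 0 counts of Car1 in every library, and the ileal list summed to 612 to 3311 CPM in DSS+CA and 514 to 1632 CPM in DSS. Fibroblast genes summed to at most 1.84 CPM in DSS+CA and 5.85 CPM in DSS, and endothelial genes to at most 1.16 CPM in DSS+CA and 2.99 CPM in DSS. General epithelial genes summed to 7274 to 9590.0 CPM in DSS+CA and 7363 to 9474 CPM in DSS, lower villus genes to 3275 to 40711 CPM in DSS+CA and 6369 to 21272 CPM in DSS, and myeloid genes to 3.86 to 9.41 CPM in DSS+CA and 12.9 to 21.1 CPM in DSS.

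The villus tip sum, most of it Apoa1 and Apoa4, overlapped between the groups. It was 16005, 26977, 62809 and 24382 CPM in DSS+CA 1 to 4 and 13805, 49893, 71792 and 32670 CPM in DSS 1 to 4. Klf4, a transcription factor of the upper villus, had 75.1 to 126 CPM in DSS+CA and 101 to 239 CPM in DSS. All 10 villus tip genes were tested and none was called by edgeR (0 higher and 2 lower at an unadjusted p under 0.05; 0 higher and 1 lower by DESeq2), with 8 below 0 and a median log2 difference of -0.49. The lowest p among them belonged to Apoc3, an apolipoprotein, with a difference of -1.35 (SE 0.39; edgeR adjusted p = 0.248), followed by Egfr, the epidermal growth factor receptor, with -0.75 (SE 0.34; edgeR adjusted p = 0.636), while Apoa4 had -0.24 (SE 0.59; edgeR adjusted p = 0.999). The 12 genes of middle villus absorption had a median of 0.03, with none called by edgeR or DESeq2 and 0 at an unadjusted p under 0.05. In that list the lowest p belonged to the lactase gene Lct, with -0.80 (SE 0.52; edgeR adjusted p = 0.854), and to the amino acid transporter gene Slc7a7, with 0.41 (SE 0.35; edgeR adjusted p = 0.923). Without the 3 libraries edgeR called 1 villus tip gene, Klf4, in the lower direction, and 0 middle villus genes. The medians of these lists were then -0.42 and -0.16. Of 8 lower villus genes 3 were called lower (Reg3g, Gsdmc2, Gsdmc4). Over all marker lists 1 of 67 tested genes was called higher and 15 lower, against 2.36% and 4.25% of all tested genes. The part of villus tip cells in the levels of the members was not tested.

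T and NK cells are another possible source of Nt5e RNA, since some of them carry CD73, and their marker genes also had negative differences. All 9 tested of 11 were below 0, with a median log2 difference of -1.90, and 1 was called, Itgae, the integrin that holds intraepithelial lymphocytes to the epithelium (9.24, 12.5, 8.18 and 13.1 CPM in DSS+CA 1 to 4, 51.1, 32.0, 33.8 and 43.5 CPM in DSS 1 to 4; edgeR adjusted p = 0.0380). That call ended when any 1 of DSS+CA 1, 2 or 4 or DSS 1, 2 or 4 was left out (edgeR adjusted p from 0.0666 to 0.183), while its log2 difference, -1.90 with all libraries, lay between -2.01 and -1.76. DESeq2 called 8 of the 9, and edgeR called 8 without the 3 libraries. The list summed to 115, 279, 1124 and 265 CPM in DSS+CA 1 to 4 and to 599, 2115, 1957 and 1187 CPM in DSS 1 to 4. Gzma, a granule protease, was the largest part of the sum in every library. For Cd3e, Cd3d, Cd8a, Lck, Itgae and Nkg7 every DSS+CA library lay below every DSS library, as for Nt5e. Cd3e, for example, was at 2.66 to 5.01 CPM in DSS+CA and 6.18 to 16.4 CPM in DSS. The groups of Cd3g, Gzma and Gzmb, the other tested genes of the list, overlapped. The part of these cells in the levels of Nt5e and the other members was not tested. B and plasma cell genes summed to 7.55 to 22.5 CPM in DSS+CA and 31.5 to 71.1 CPM in DSS. Mast cell and basophil genes, named here because Enpp3 marks these cells, summed to 11.96 to 18.0 CPM in DSS+CA and 14.6 to 34.0 CPM in DSS. Their part in the level of Enpp3 was not tested.

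**Figure D5:**
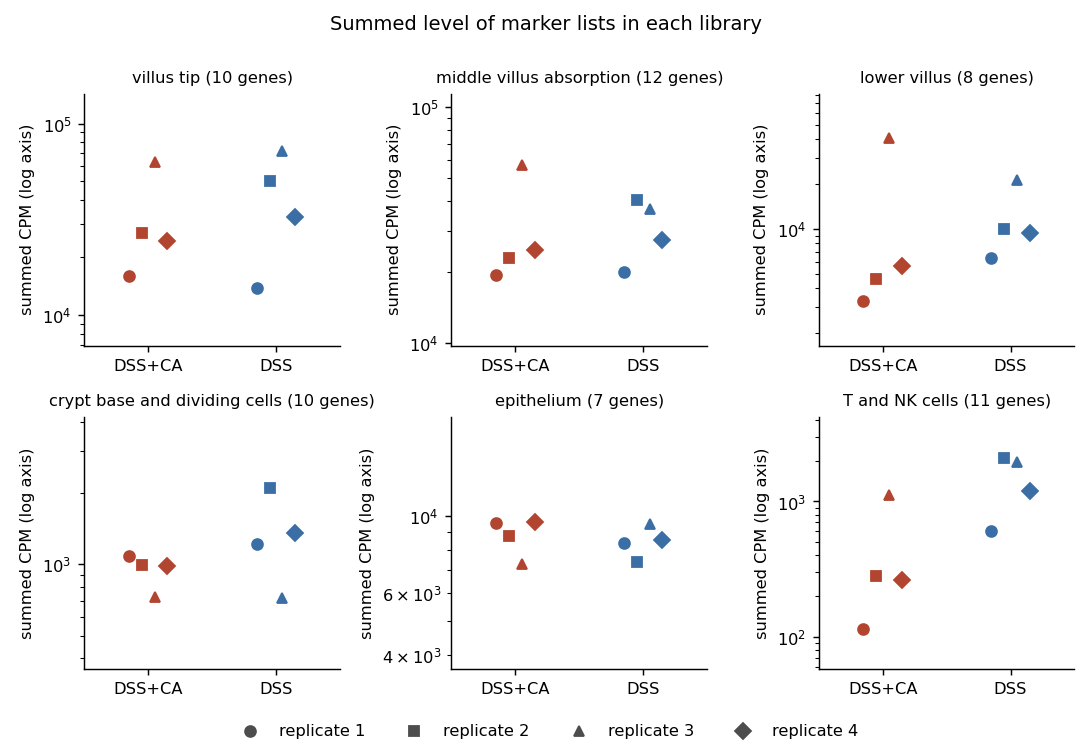
Summed CPM (log axis) of 6 marker lists in each library, DSS+CA left in red and DSS right in blue, with marker shapes for the replicate number. The villus tip sums overlap between the groups, from 16005 to 62809 CPM in DSS+CA and 13805 to 71792 CPM in DSS, and the T and NK cell sums run from 115 to 1124 CPM in DSS+CA and 599 to 2115 CPM in DSS.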

How the data were processed

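The authors deposited 1 table per library (8 in all), listing 34745 genes with their raw counts and FPKM values, per the file headers. The RNeasy Micro kit gave the RNA, and TruSeq Stranded Total RNA libraries were made from 200 ng each, per the labels' protocols. The submitters' processing notes name HISAT2 and StringTie, and GRCm38 and mm10 as builds, with no versions or roles. Which tool counted the reads, with which annotation and strand setting, is not given in the sources used here. From the values, the deposited FPKM is the count over a constant length per gene and over the library total, within 1% for all 17718 genes counted in at least 2 libraries, so it is not corrected for library composition. Every table row is a gene.

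Genes with FPKM of at least 1 in at least 4 libraries were compared on the counts in R 4.3.3 with edgeR 4.0.16 and limma 3.58.1, by the two-sided quasi-likelihood test after TMM scaling, with no term but the group. Adjustment was by Benjamini and Hochberg over the 9913 tested genes, with a threshold of 0.05. Differences are DSS+CA minus DSS, and their SE is derived from the F statistic (the size of the difference over the root of F). The common biological coefficient of variation was 0.416. The procedure was checked on simulated counts for the same genes, with 200 of them changed. It called 8.96% of the 2-fold, 68.7% of the 4-fold and 93.9% of the 8-fold changes, and 2 unchanged genes. DESeq2 1.42.0 was an alternative, beside other scalings, filters, a replicate block and libraries left out. Tables were handled with pandas 2.3.3 and numpy 2.4.6 under Python 3.11.15, and matplotlib 3.10.9 drew the figures.

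The members, the gene lists and the tests were chosen with earlier results of these data known. In each list the text names the genes past the threshold, or the 2 with the smallest p outside the set where none passed (lists whose cells bear on no member are given as sums), 8 fixed genes, the near-identical copies Pnp2 and Slc28a2b, and the 6 genes most like Nt5e by each measure; other names were chosen after their values were seen. Of 206 list genes, 205 were matched by symbol; Itgam had more than 1 entry and was left out. Promoters are from RefSeq on GRCm38.p6, and exons and transcripts from GENCODE M21.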

Additional observations from a re-analysis of the deposited data

Results flagged for a closer look

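Within each group of 4 libraries, the highest or lowest library was looked at where its gap to the next, divided by the range of the group, exceeded Dixon's critical value at 95%. Of 119 groups of named genes 18 passed, and chance alone gives about 1 in 20. In 8 of them the library was DSS+CA 3 and in 6 it was DSS 2, which are also among the libraries of shortest counted genes. The genes are not independent of each other, and some were named for their likeness to Nt5e. The 18 can therefore not be measured against that share.

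Of the set, Entpd8 alone was concerned, with 92.9 CPM in DSS+CA 3 against 51.3 to 56.5 CPM in the other DSS+CA libraries. Its FPKM in DSS+CA 3, 9.56, was close to the 8.27 to 9.49 of the others, so the gap rests on the scaling of libraries. DSS+CA 3 was also apart for Dpp4 at 2570.4 CPM (others 598 to 856), Adk at 104 CPM (others 61.6 to 67.3), Enpp1 at 13.1 CPM (others 15.7 to 16.1), Slc51b at 1055 CPM (others 59.8 to 144), Car4 at 307 CPM (others 204 to 218), Olfm4 at 159 CPM (others 460.0 to 506) and Mcpt2 at 5.93 CPM (others 1.69 to 2.34). For Adk and Car4 this gap too rests on the scaling. Their FPKM in DSS+CA 3 was 43.0 (others 42.4 to 44.5) and 76.9 (others 80.2 to 96.0).

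DSS 2 was apart for Dio1 at 74.1 CPM (others 36.1 to 38.4), Apol7a at 200.1 CPM (others 96.6 to 103), 4931406C07Rik at 407 CPM (others 176 to 215), P2ry10 at 25.1 CPM (others 4.82 to 7.44), Ighm at 10.1 CPM (others 4.62 to 5.48) and Slc29a1 at 5.87 CPM (others 11.3 to 12.3). On the FPKM scale DSS 2 was still highest but less far apart for Dio1, at 12.1 (others 6.67 to 10.1), Apol7a, at 22.7 (others 12.7 to 18.3), and Ighm, at 3.31 (others 2.03 to 2.87). Those gaps thus rest in part on the scaling. Nt5e had its highest value in the same library, 105 CPM, without passing the limit. Dio1, Apol7a and 4931406C07Rik were named for their likeness to Nt5e, so their flags in DSS 2 are not independent of that choice. DSS+CA 2 was apart for Gsdmc4 at 7.59 CPM (others 2.64 to 3.27) and Gsdmc2 at 5.69 CPM (others 2.07 to 2.35), DSS+CA 1 for Mcpt1 at 6.71 CPM (others 3.16 to 3.76) and DSS+CA 4 for Chordc1 at 41.8 CPM (others 53.1 to 53.8). On the FPKM scale Chordc1 was not lowest in DSS+CA 4, at 21.8 against 17.9 in DSS+CA 3.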

How the results depend on the processing

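The direction of all 6 members held in the 95 values from 16 alternatives, each within the spread between replicates; Nt5e has no value where FPKM of at least 1 was required in all 8 libraries, a filter it fails through DSS+CA. With 1 library left out, the log2 difference of Nt5e lay between -3.21 and -2.58, of Enpp3 between 0.18 and 0.53, of Entpd8 between -0.63 and -0.29, of Ada between -1.33 and -0.76, of Pnp between -0.64 and -0.31 and of Slc28a2 between -1.22 and -0.70.

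The numbers of called genes moved with most settings; the cause was not tested. Against 4 higher and 9 lower in DSS+CA, there were 7 and 20 with RLE scaling, 51 and 169 with DESeq2, 18 and 61 with no filter, 8 and 19 without mitochondrially encoded genes, and 234 and 421 without DSS 2, DSS 3 and DSS+CA 3; 2 were higher where FPKM of at least 1 was required in all 8 libraries. All 13 genes were again called in each of these except the last, which tested 7364 genes and called 8 of them. With 1 library left out, 0 to 19 were higher and 4 to 65 lower. Against 0 higher and 1 lower list genes outside the set, there were 2 and 15 with DESeq2, 1 and 7 with no filter and 3 and 19 without those 3 libraries, 4 were lower with RLE scaling and 4 without mitochondrially encoded genes; with 1 library left out 0 were higher and 0 to 8 lower. The call of Itgae ended without any 1 of DSS+CA 1, 2 or 4 or DSS 1, 2 or 4 (edgeR adjusted p 0.0666 to 0.183, log2 difference -2.01 to -1.76). With the replicate block, 14 genes were higher and 51 lower, 1 and 9 of them list genes, and the difference of Nt5e was -2.89. The labels give libraries of the same number nothing in common but that number. The correlation of their deviations from the group means was 0.78, -0.38, 0.11 and 0.23 for numbers 1 to 4. By this measure 1 of the 4 DSS+CA libraries went best with its own number. These values cannot settle whether libraries of the same number were paired. Of 817 values of other named genes under the alternatives, 770 stayed on their side of the threshold, 39 passed it newly and 8 no longer passed, and none changed sign as a call. Lgr5, 13 of 19 receptors and 4 of 7 other nucleoside transporters were below the FPKM filter and were not tested.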
